A study of Mus musculus with 6 samples.

Results

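Cytosolic ribosomal protein genes encode the proteins that, with ribosomal RNA, build the large and the small subunit of the ribosome. They were taken here as every probe set with a single gene symbol of the form Rpl or Rps and a number, of the form Rplp and a number, or Rpsa. The rule found 108 of the 23521 single-gene probe sets, and they belong to 67 of the 22180 genes with such a probe set. Each gene is given by its probe set with the highest mean over all arrays, and the other probe sets are described further on. Of the 67 genes, 35 encode large subunit proteins, 23 encode small subunit proteins and 9 carry the name of a ribosomal protein with an added l ("like"). The rule used symbols and no measured difference.

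RNA came from confluent mouse embryonic fibroblasts (MEFs), connective tissue cells grown out of embryos, of an F1 cross of C57Bl6N and 129Sv. One genotype was Pax7-/-, with no functional copy of the transcription factor Pax7, and the other was Pax7+/+, its wild type. Each genotype had 3 arrays, numbered 1 to 3 in the labels, and no other allele or agent is given for either. The labels call the arrays biological replicates without saying whether they were separate embryos or cultures, so the p-values measure the spread between these samples, which may be technical.

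The labels also give the cell type as ESCs, against fibroblasts in the titles and sources. Of 10 fibroblast markers, 9 or 10 were above background on each array, with medians of 9.22, 9.34 and 9.84 in Pax7-/- and 9.37, 9.45 and 9.94 in Pax7+/+ (log2 signal). Of 10 markers of pluripotent cells, 2 or 3 were. The 1 probe set for Pax7 read 6.17, 5.95 and 5.05 in Pax7-/- and 6.14, 5.65 and 4.88 in Pax7+/+, and its position relative to the deleted part is not given, so it checks nothing. The background level of an array was the 95th percentile of its signals for 1373 receptor genes of smell (olfactory and vomeronasal), and it was 5.43, 5.34 and 4.63 in Pax7-/- and 5.44, 5.34 and 4.65 in Pax7+/+.

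Ribosomes need about equal numbers of each protein, and most cells make the messages for all of them at high and coordinated levels. Many of these messages begin with a C followed by a run of pyrimidines, the TOP motif, through which growth signals set their translation. Several of the proteins also act when not bound in a ribosome, above all by binding Mdm2, the ligase that marks p53 for destruction. A known trait of these genes is a large number of near-identical processed pseudogenes, so an array probe may read copies as well as the parent gene.

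The genes as a whole had the same signal in both genotypes to within 0.1 on the log2 scale in most cases. The median difference, Pax7-/- minus Pax7+/+, was -0.01 over the 67 genes and -0.00 over all 22180 genes. By replicate number the median of the 67 was 0.03, -0.06 and -0.01. Of the 67 differences, 46 were within 0.1 and 63 within 0.25 in either direction, against 13600 and 20899 of all 22180 genes. Among the 50 genes above background in both genotypes, 35 and 48 were, against 6684 and 10866 of all 11770 such genes. The 4 of the 67 beyond 0.25 were Rps13, Rpl3, Rpl5 and Rps4l, which were picked out after their values were seen.

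The test was limma across all genes, and a gene was called when its Benjamini-Hochberg adjusted p was under 0.05. With genotype as the only term it called 0 of the 67 genes higher or lower (0.0% of all genes in each direction), and the smallest adjusted p among them was 1.00. At an unadjusted p under 0.05 it took 1 of the 67, Rps13, and 15 of all genes (0.0676%). With the replicate number as a block, 1 of the 67 was called, Rps13, as lower, against 15 lower (0.0676%) and 2 higher (0.00902%) over all genes. At an unadjusted p under 0.05 the fit with the block took Rpl3 and Rpl5 as higher (3.28% of all genes) and Rps13 and Rps4l as lower (3.45%). The block narrowed the median SE of the 67 to 0.10, against 0.31 without it. The 95% confidence interval with the block lay within 0.5 on either side of 0 for 61 of the 67 genes. With genotype as the only term it did so for 17 of them. Among the 50 genes above background in both genotypes the counts were 48 with the block and 12 without it.

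A pair of counts describes the order of the arrays without a model. All 3 same-numbered pairs had one sign in 7 genes as higher and in 7 as lower in Pax7-/-, against 13.8% of all genes in each direction. The 3 Pax7-/- arrays lay outside the range of the 3 Pax7+/+ arrays in 2 genes, Rplp1 as higher (0.667% of all genes) and Rps13 as lower (0.744%). The 14 genes of one sign are 20.9% of the 67, against 27.5% of all genes in both directions, and the 2 without overlap are 2.99%, against 1.41%.

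**Figure D1:**
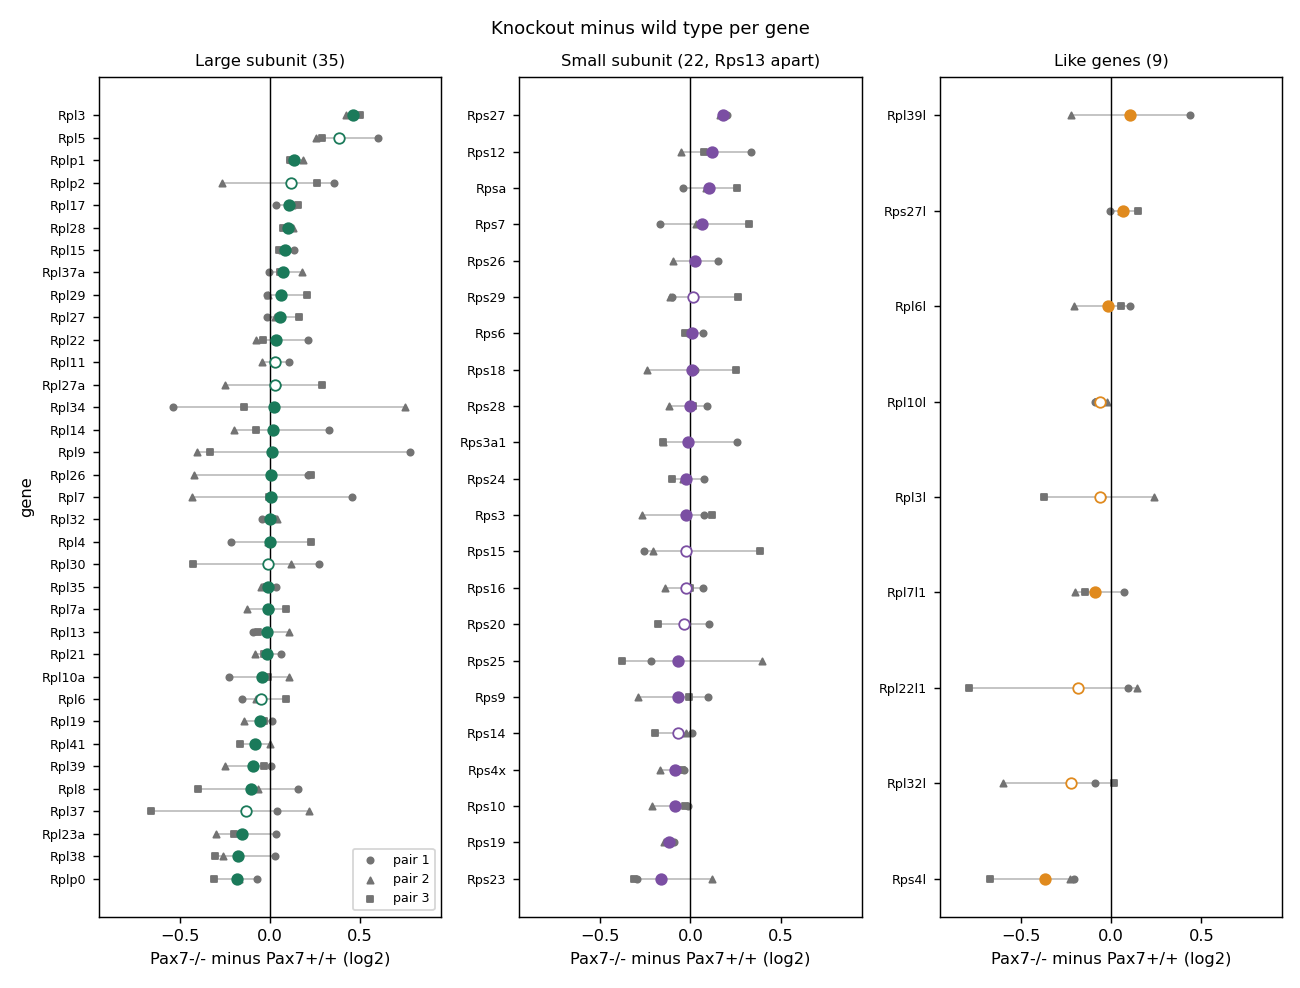
Difference Pax7-/- minus Pax7+/+ (log2, horizontal axis) for each ribosomal protein gene but Rps13, by class. Large points are means of 3 arrays per genotype, filled where both genotypes were above background, and the small grey marks are the 3 same-numbered pairs joined by their range. Most means lie within 0.25 of 0, with Rpl3 at 0.46, Rpl5 (not above background) at 0.38 and Rps4l at -0.37.

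Of the 67 genes, 50 had a mean above the background level in both genotypes (74.6%), against 53.1% of all genes. A genotype counts as above background when its mean and at least 1 of its arrays exceed that level. A further 16 were above it in neither genotype and 1, Rps13, in Pax7+/+ alone. The 16 include Rpl5, Rpl6, Rpl11, Rpl27a, Rpl30, Rpl37, Rplp2, Rps14, Rps15, Rps16, Rps20 and Rps29, all proteins of the ordinary ribosome. This describes their single-gene probe sets and does not show that the messages were absent. Probe sets that also name other genes were above background on all 6 arrays for Rps16 (mean 10.06), Rpl30 (9.88), Rpl27a (9.58) and Rplp2 (8.97). Their signal cannot be assigned to a single gene, and the probe set shared by Rpl5 and Rpl5-ps2 was above background in neither genotype. A difference between signals at background is not read as a change in a message, and these 16 are given by their signals and signs. The signal of the 67 had medians of 7.02, 7.01 and 8.23 on the Pax7-/- arrays and 6.69, 7.21 and 8.30 on the Pax7+/+ arrays. Signals of different probe sets depend on their probes and are not set against each other. In bulk RNA such as this, fewer cells with a message and less message per cell cannot be told apart.

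**Figure D2:**
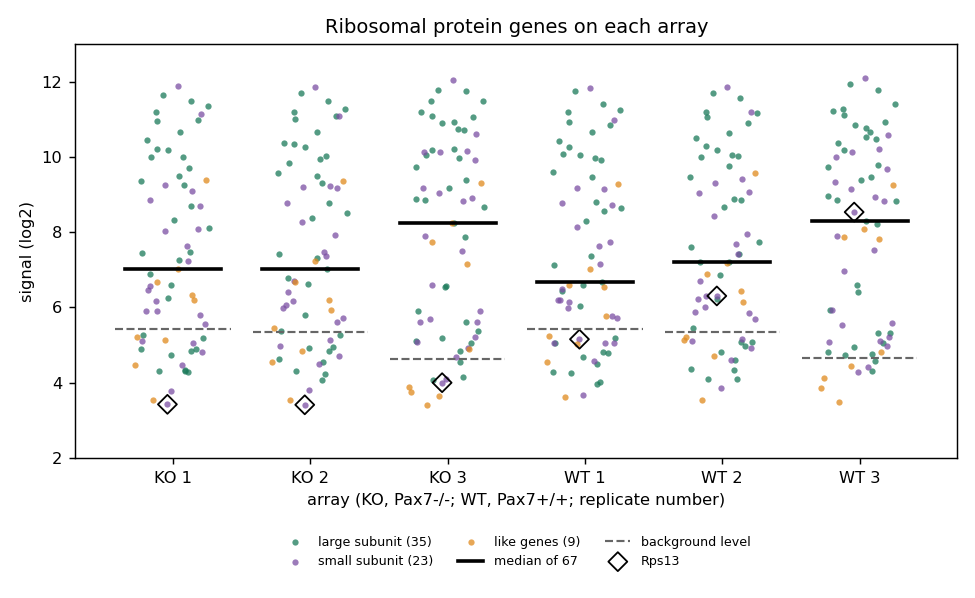
Log2 signal (vertical axis) of the 67 ribosomal protein genes on each array, with Pax7-/- arrays to the left of Pax7+/+ arrays. Points are genes coloured by class, thick bars the median of the 67, dashed lines the background level, and diamonds Rps13, which lies under the background level on all 3 Pax7-/- arrays and above it on Pax7+/+ arrays 2 and 3.

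Fau, a small subunit protein made as a fusion with a ubiquitin-like part, falls outside the symbol rule. Its signal was 10.64, 10.59 and 11.10 in Pax7-/- and 10.65, 10.60 and 11.05 in Pax7+/+, which differ by 0.01 (SE 0.09 with the block).

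Rps13, a small subunit protein, was lower in Pax7-/- on its only single-gene probe set, 17493182. The log2 signal was 3.43, 3.41 and 4.001 in Pax7-/- and 5.16, 6.31 and 8.53 in Pax7+/+, or 3.61 ± 0.34 and 6.67 ± 1.72 (SD, n = 3 arrays each). No Pax7-/- array reached any Pax7+/+ array. The Pax7-/- arrays were all under the background level, and so was Pax7+/+ array 1, while Pax7+/+ arrays 2 and 3 were above it.

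Because the Pax7-/- signal was not above background, the size of the Rps13 difference is a bound. With the Pax7-/- signal set to the background level, probe set 17493182 was lower by at least 1.53 on the log2 scale, or 2.89-fold. This bound holds for the genotype means, that background level and that probe set. Pax7+/+ array 1, itself under the background level, entered the mean at its measured 5.16. The bound does not apply to each same-numbered pair. The measured difference was -1.73, -2.89 and -4.53 in the same-numbered pairs. The adjusted p from limma was 0.0400 with the block and 1.00 with genotype alone. The bound leans on Pax7+/+ array 3. Without that array it was -0.60, and from replicates 1 and 2 alone it was -0.34. With the block, the adjusted p was 1.67e-08 without replicate 1, 0.139 without replicate 2 and 0.00251 without replicate 3. Each of those fits kept 2 pairs, too few to measure the gene's own spread well, so limma leaned on the spread of other genes. These p-values therefore do not rank the strength of the evidence. It was 0.749 with the block when all 41345 probe sets were tested. With the 90th percentile of the receptor genes as background the bound was -1.97, and with the 99th it was -0.41.

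The 3 other probe sets that name Rps13 list further genes too, so their signal cannot be assigned to it. Probe set 17503531, which also names the predicted gene Gm15483 and the pseudogene Rps13-ps4, read 8.45, 8.47 and 9.15 in Pax7-/- and 6.56, 8.11 and 8.86 in Pax7+/+. It was above background on all 6 arrays, and the genotypes overlapped. Its difference, 0.85 (SE 0.32 and adjusted p = 0.884 over all probe sets with the block), has the opposite sign to that of 17493182. Pax7+/+ array 1 was the lowest array of its genotype on both.

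The remaining 2 probe sets lay at background on most arrays. Probe set 17495404, with the same 3 names, read 4.47, 4.76 and 4.93 in Pax7-/- and 4.88, 4.91 and 4.79 in Pax7+/+. Probe set 17495412, shared with the small nucleolar RNA gene Snord14a, read 4.39, 4.27 and 6.44 in Pax7-/- and 4.28, 4.23 and 6.496 in Pax7+/+. On 17495412 the replicate 3 arrays stood above background in both genotypes, by near-equal amounts. The fall of Rps13 thus stood on 1 of the 4 probe sets that name it.

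**Figure D3:**
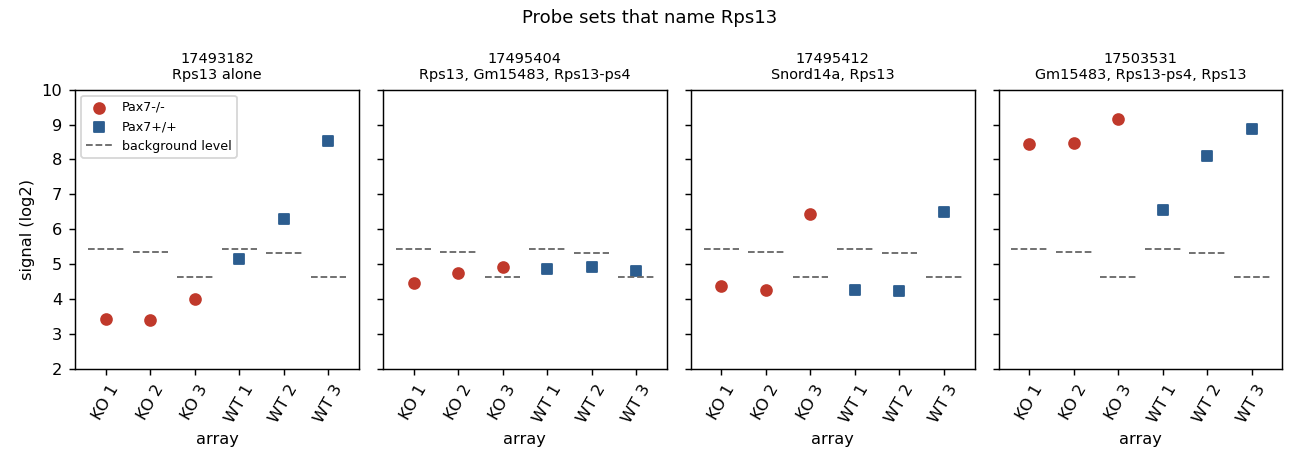
Log2 signal (vertical axis) on each array for the 4 probe sets that name Rps13, each titled with its identifier and the genes it names. Red circles are Pax7-/-, blue squares Pax7+/+, and dashes the background level. The genotypes separate on 17493182 alone, and on 17503531 the mean is higher in Pax7-/- with overlap.

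The promoter of Rps13 is shown because this gene is described apart from the others. It is on the minus strand of chromosome 7 in RefSeq's GRCm38.p6, at chr7:116334171-116334290, 100 bases before the start of the gene to 20 bases from it. Capitals mark the annotated start base, a T, and CCGCCAT, which is the motif ATGGCGG read on the other strand. The window holds no TOP start at its annotated start.
Rps13: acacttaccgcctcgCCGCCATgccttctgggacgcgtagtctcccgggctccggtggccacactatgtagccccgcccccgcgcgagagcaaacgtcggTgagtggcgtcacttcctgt

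Among large subunit proteins, 0 of 35 passed the test with or without the block. Their median difference was 0.01, with 20 higher and 15 lower in Pax7-/- by sign alone. Rpl3, a core protein close to the site where peptide bonds form, stood farthest from 0 among those above background. It read 9.26, 9.30 and 9.98 in Pax7-/- and 8.79, 8.88 and 9.47 in Pax7+/+. Each Pax7-/- array was above its same-numbered Pax7+/+ array by 0.46, 0.42 and 0.50, while Pax7+/+ array 3 exceeded Pax7-/- arrays 1 and 2, so the genotypes overlapped. With the block the difference was 0.46 (SE 0.09, 95% confidence interval 0.26 to 0.66, adjusted p = 0.168). It passed in 1 setting, chosen after seeing the data, in which limma's block was combined with a variance that depends on intensity (adjusted p = 0.0374).

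The other probe sets of Rpl3 did not carry the same difference. Probe set 17319403 read 8.04, 8.15 and 8.61 in Pax7-/- and 7.74, 7.90 and 8.60 in Pax7+/+, a difference of 0.19. Probe set 17319389 was at background on every array, with a difference of -0.05. Averaged over its 3 probe sets Rpl3 differed by 0.20 (adjusted p = 0.771 with the block).

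The P stalk is the arm of the large subunit that recruits the GTP-using translation factors, and it is built from Rplp0, Rplp1 and Rplp2. Rplp0, its base, read 9.995, 9.84 and 10.06 in Pax7-/- and 10.07, 10.01 and 10.37 in Pax7+/+, which is -0.18 between the means (SE 0.09 and adjusted p = 0.784 with the block). Rplp1 read 10.97, 11.09 and 11.05 in Pax7-/- and 10.86, 10.90 and 10.94 in Pax7+/+. All 3 Pax7-/- arrays of Rplp1 thus exceeded all 3 Pax7+/+ arrays, by a mean of 0.14 (SE 0.09 and adjusted p = 0.828 with the block). The single-gene probe set of Rplp2 lay under background on every array, between 3.97 and 4.56. A probe set shared by Rplp2 and the small nucleolar RNA gene Snora52 was above background on all 6 arrays. A second probe set of Rplp0, 17441191, was also above background on all 6 arrays and differed by 0.08, so the sign of Rplp0 depended on the probe set. Of the 3 stalk genes, 0 passed.

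The other large subunit genes of one sign in all 3 pairs and above background were Rpl17, Rpl28 and Rpl15. Rpl28 read 11.35, 11.29 and 11.48 in Pax7-/- and 11.24, 11.15 and 11.41 in Pax7+/+, a difference of 0.10. Rpl15 differed by 0.08 and Rpl17 by 0.10, and Rpl17 was above background on array 3 of each genotype alone. Their adjusted p-values with the block were 0.881 for Rpl17 and Rpl28 and 0.909 for Rpl15. The widest disagreement between pairs was in Rpl9, at 0.78, -0.40 and -0.33, and Rpl34, at -0.54, 0.75 and -0.14. For both, the mean difference was near 0 (0.01 and 0.02) and the interval reached beyond 0.4 on each side.

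Among small subunit proteins other than Rps13, 0 of 22 passed the test, their median difference was -0.02, and all 22 were within 0.25. Rps27, a zinc-finger protein, read 6.18, 6.18 and 5.70 in Pax7-/- and 5.98, 6.02 and 5.52 in Pax7+/+. Its pairs differed by 0.20, 0.16 and 0.18, the closest agreement between pairs among all 67 genes, and its mean difference was 0.18 (SE 0.09 and adjusted p = 0.775 with the block). Rps19, which is mutated in many patients with Diamond-Blackfan anaemia, read 8.04, 8.28 and 9.05 in Pax7-/- and 8.13, 8.42 and 9.16 in Pax7+/+, a difference of -0.12 (adjusted p = 0.860). Rps10 differed by -0.09 and Rps4x, the X-linked form of Rps4, by -0.08, both with an adjusted p of 0.911. Replicate 3 stood apart from replicates 1 and 2 by more than any of these differences in Rps19, Rps4x and Rps27. For Rps27 that step was -0.48 in Pax7-/- and -0.48 in Pax7+/+.

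The 9 like genes held 5 above background in both genotypes, and 0 passed the test. Rps4l, a paralogue of Rps4x, was the lowest after Rps13. It read 6.34, 6.20 and 7.16 in Pax7-/- and 6.54, 6.43 and 7.83 in Pax7+/+, lower in every pair by 0.20, 0.23 and 0.67. With the block its mean difference was -0.37 (SE 0.11, 95% confidence interval -0.62 to -0.11, adjusted p = 0.558), and without replicate 3 it was -0.21. The X-linked parent Rps4x differed by -0.08.

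Of the remaining paralogues, Rpl39l, known for its use in male germ cells, differed by 0.11 and its parent Rpl39 by -0.09. Rps27l, a p53 target, differed by 0.07 and Rps27 by 0.18. Rpl7l1, a protein of ribosome assembly, differed by -0.09 and Rpl7 by 0.01. Rpl3l, known for its use in skeletal and heart muscle, was not above background in either genotype, at 5.204, 5.44 and 3.75 in Pax7-/- and 5.25, 5.21 and 4.12 in Pax7+/+. Rpl10l and Rpl22l1 were at background on all 6 arrays. Rpl6l and Rpl32l, to which no role is given here, read 9.26 to 9.58 and 3.86 to 5.15 over the 6 arrays.

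Proteins known to bind Mdm2 were taken as a list of 12, of which 10 were analysed and 7 were above background in both genotypes. Their median difference was 0.03, against -0.00 over all genes, and 0 passed the test. Rpl5 and Rpl11, which bind Mdm2 together with 5S ribosomal RNA, were both under background on 4 of 6 arrays. Rpl5 read 4.89, 4.63 and 5.11 in Pax7-/- and 4.29, 4.37 and 4.82 in Pax7+/+, higher in each pair of equal number, yet above background on array 3 of each genotype alone. Rpl11 read 4.89, 4.94 and 5.07 in Pax7-/- and 4.79, 4.99 and 5.05 in Pax7+/+. A second probe set, shared by Rpl5 and its pseudogene Rpl5-ps2, was above background in neither genotype, with means of 4.58 in Pax7-/- and 4.92 in Pax7+/+.

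Of the rest of the Mdm2 list, Rps27 stood farthest from 0, at 0.18, as given with the small subunit, and Rps27l differed by 0.07. Rpl26 differed by 0.01, Rps3 by -0.02, Rps7 by 0.06, Rps25 by -0.07 and Rps26 by 0.03. Rps14 lay at background on arrays 1 and 2 of each genotype. Rps25 was the most variable of them, with pairs at -0.22, 0.40 and -0.38.

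Of the 67 genes, 25 had more than 1 single-gene probe set, and in 11 of these the probe sets differed in sign (Rpl3, Rpl4, Rpl9, Rpl27, Rpl29, Rpl35, Rplp0, Rps3a1, Rps9, Rps12 and Rpsa). These signs include probe sets at background. In Rpl9 and Rps3a1 only 1 probe set was above background in both genotypes. In Rpl3 the 2 above background were both higher in Pax7-/-, and the other sign came from a probe set at background. The median spread between probe sets of a gene was 0.16 in the difference, larger than most of the genotype differences themselves. Some probe sets with different identifiers carried identical values on all 6 arrays, 6 of the 8 for Rps12, 2 of the 2 for Rpl23a and 2 of the 3 for Rps19, so these are not separate measurements. Of the 41 probe sets that do not stand for their gene, 4 had no overlap between genotypes, against 1.86% of all probe sets in both directions. They were those of Rpl29, Rpl41 and Rps24 as lower (1.02% of all probe sets) and Rpl35 as higher (0.842%).

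Rpl29, a large subunit protein also known as a heparin-binding protein, had the widest disagreement. Probe set 17521204 read 6.47, 6.99 and 6.89 in Pax7-/- and 7.64, 7.26 and 9.48 in Pax7+/+, so that Pax7+/+ array 3 stood far above the rest. The difference was -1.34 (SE 0.41 and adjusted p = 0.884 over all probe sets with the block), with pairs at -1.17, -0.27 and -2.58. The probe set that stands for the gene, 17212353, read 11.18, 11.19 and 11.47 in Pax7-/- and 11.20, 11.20 and 11.27 in Pax7+/+, a difference of 0.06. Both were above background on every array, and they gave different answers for 1 gene.

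Rpl35 had a probe set, 17218423, at 6.40, 6.51 and 6.22 in Pax7-/- and 5.96, 6.22 and 5.84 in Pax7+/+, higher by 0.37 (SE 0.09 and adjusted p = 0.884 over all probe sets with the block). Its main probe set, 17548654, read 10.96, 11.01 and 11.09 in Pax7-/- and 10.93, 11.05 and 11.11 in Pax7+/+, a difference of -0.01. The nonoverlapping probe sets of Rpl41 and Rps24 differed by -0.05 and -0.16. With all probe sets of the table in the test, 0 of 41345 passed with the block.

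**Figure D4:**
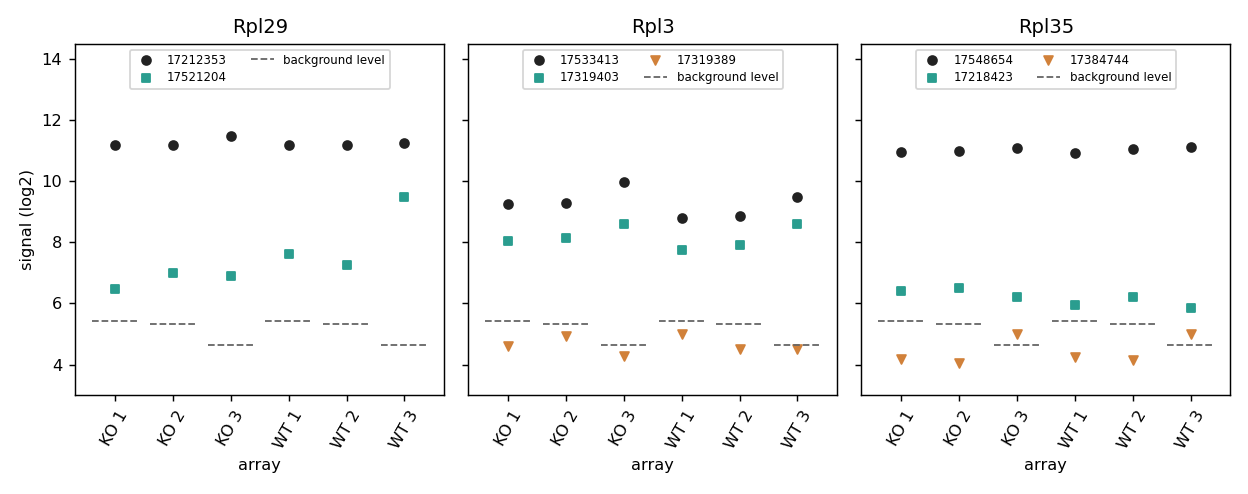
Log2 signal (vertical axis) on each array for the single-gene probe sets of Rpl29, Rpl3 and Rpl35, one marker per probe set, with Pax7-/- arrays to the left of Pax7+/+ arrays and dashes for the background level. Probe set 17521204 of Rpl29 reads 9.48 on Pax7+/+ array 3 and 6.47 to 7.64 on the others, while 17212353 of the same gene stays between 11.18 and 11.47.

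A further 57 probe sets name a ribosomal protein symbol together with other genes, such as pseudogenes and predicted genes. Their differences ran from -0.34 to 0.85, with a median of -0.02, 53 of them within 0.25. None of the 57 had genotypes without overlap, and the smallest adjusted p with the block was 0.884 over all probe sets. The highest was 17503531, described with Rps13.

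A difference between replicate 3 and replicates 1 and 2 was shared by both genotypes. Replicate 3 exceeded the mean of replicates 1 and 2 in both genotypes in 48 of the 67 genes (71.6%), against 42.8% of all genes. Among the 50 above background it did so in 39, against 67.7% of all genes above background. The median step of the 67 was 0.30 in Pax7-/- and 0.39 in Pax7+/+, and that of all genes was -0.10 in each. Among those above background it was 0.60 in Pax7-/- and 0.64 in Pax7+/+, against 0.79 in Pax7-/- and 0.82 in Pax7+/+ over all genes above background. The step depended on scaling, since with quantile normalization the median of the 50 was -0.16 in Pax7-/- and -0.18 in Pax7+/+. Centring each array on its median gave 0.88 in Pax7-/- and 0.91 in Pax7+/+, and moved the median of all genes to 0.19 in Pax7-/- and 0.18 in Pax7+/+.

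Single genes differed widely in this step. Rps3a1, a small subunit protein, read 6.47, 6.07 and 9.18 in Pax7-/- and 6.21, 6.22 and 9.33 in Pax7+/+, a step of 2.91 in Pax7-/- and 3.11 in Pax7+/+. The step of Rpl7 was 2.02 in Pax7-/- and 2.04 in Pax7+/+, and that of Rpl17 was 1.73 in Pax7-/- and 1.65 in Pax7+/+. In the other direction stood Rpl3l, at -1.58 in Pax7-/- and -1.11 in Pax7+/+, Rpl39l, at -1.15 in Pax7-/- and -1.15 in Pax7+/+, and Rpl26, at -0.85 in Pax7-/- and -1.18 in Pax7+/+. Averaged over the genotypes, Rps29, Rps16 and Rplp1 were closest to 0. For Rps29 that average joins opposite signs, 0.20 in Pax7-/- and -0.18 in Pax7+/+. The step of Rps13 was 0.58 in Pax7-/- and 2.80 in Pax7+/+, the widest gap between the genotypes among the 67. No label says how replicate 3 was handled.

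**Figure D5:**
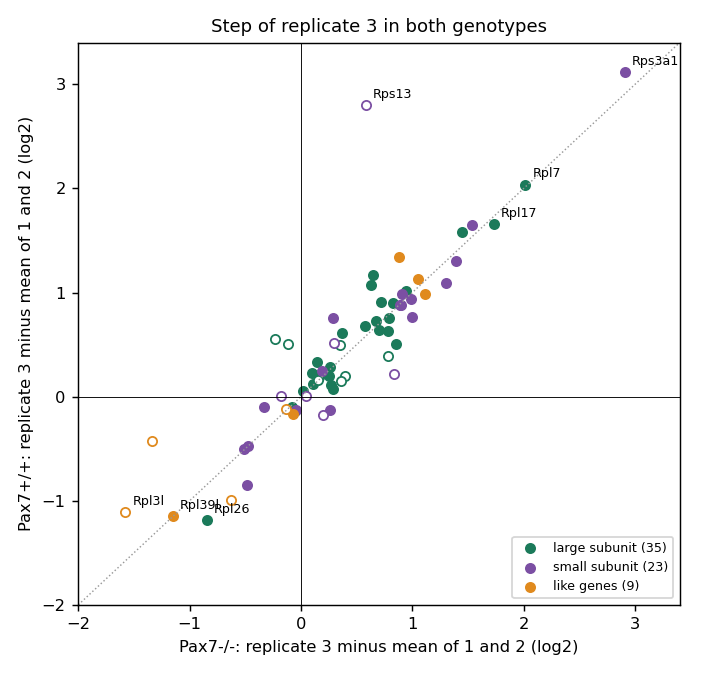
Replicate 3 minus the mean of replicates 1 and 2 (log2) for each of the 67 genes, with Pax7-/- on the horizontal and Pax7+/+ on the vertical axis. Filled points were above background in both genotypes, and the dotted line marks equal steps. The genes follow that line from Rpl3l, at -1.58 in Pax7-/- and -1.11 in Pax7+/+, to Rps3a1, at 2.91 in Pax7-/- and 3.11 in Pax7+/+. Rps13 lies far above it, at 0.58 in Pax7-/- and 2.80 in Pax7+/+.

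Promoters were read for features that ribosomal protein genes are known for. RefSeq's windows of 250 bases before to 50 bases from the annotated start (GRCm38.p6) were found for 52 of the 67 genes, with 61 windows. A TOP start, a C at the annotated start followed by at least 4 bases that are C or T, was in 11 of the 61 windows (18.0%), against 2.51% of all 32851 windows. CTTTC within 10 bases of the start was in 9 windows (14.8%, against 2.58%). ATGGCGG, on either strand, was in 10 windows of 9 genes (16.4%, against 4.05%), and CCGGAAG, on either strand, in 23 windows (37.7%, against 8.86%). Over the 21262 windows of protein-coding genes the shares were, in the same order, 2.21%, 2.41%, 5.24% and 11.6%. The motifs near the start overlap, since a TOP start can contain CTTTC. A match describes the letters and is not a measured site.

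Windows of 40 bases before to 20 bases from the start are shown for genes above background with one sign in all 3 pairs and a single window. Rps19, which has 3 windows, holds a TOP start in none of them. Rpl28, Rpl15 and Rps27, higher in each pair, have a TOP start, and so does Rps10, lower in each pair. A TOP start was sought at the annotated start base alone, so a message that begins elsewhere could be missed. A link between a TOP start and the direction of the difference was not tested. Capitals mark the pyrimidine run from the start base, or the start base alone where there is no such run. The windows are chr7:4792925-4792984 on the plus strand for Rpl28, chr14:18270967-18271026 on the minus strand for Rpl15, chr3:90213629-90213688 on the minus strand for Rps27 and chr17:27635225-27635284 on the minus strand for Rps10. Rplp0 is at chr5:115559427-115559486 on the plus strand and Rps4x at chrX:102189372-102189431 on the minus strand, and both, lower in each pair, lack the run.
Rpl28: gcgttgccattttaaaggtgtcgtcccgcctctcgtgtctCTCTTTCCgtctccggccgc
Rpl15: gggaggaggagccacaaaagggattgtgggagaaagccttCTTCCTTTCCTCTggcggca
Rps27: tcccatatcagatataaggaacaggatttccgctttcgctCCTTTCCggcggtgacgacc
Rps10: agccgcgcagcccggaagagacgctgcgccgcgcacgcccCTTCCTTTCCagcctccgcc
Rplp0: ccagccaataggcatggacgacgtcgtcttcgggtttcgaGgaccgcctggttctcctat
Rps4x: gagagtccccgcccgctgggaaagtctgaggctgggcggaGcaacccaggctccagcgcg
Rpl3, Rpl17, Rplp1 and Rps4l are named only.

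Genes that work with the ribosome showed no call. Of 14 translation factors, 13 were above background in both genotypes, and their median difference was -0.01. The lowest p among them belonged to Eef1b2, an exchange factor for the elongation factor that brings tRNA, which read 9.18, 9.25 and 9.62 in Pax7-/- and 9.29, 9.45 and 10.05 in Pax7+/+, a difference of -0.25 (adjusted p = 0.692 with the block). Eif3e, a subunit of initiation factor eIF3, differed by -0.22 (adjusted p = 0.784). Of 25 ribosome biogenesis genes 24 were above background, with a median of 0.00. Taf1d, a subunit of the RNA polymerase I factor SL1, differed by 0.26, most of it from pair 1 at 0.69, and Pes1, which is needed to mature the large subunit RNA, by -0.20.

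Dedicated chaperones of ribosomal proteins, 7 of 8 analysed, had a median difference of -0.04, with Pdcd2l at -0.12 and Heatr3 at -0.09. Of 10 transcription factors linked to ribosomal protein genes, Gabpa, the ETS subunit of GA-binding protein, was lowest by p at -0.25 (adjusted p = 0.727 with the block), with pairs at -0.30, -0.46 and -0.00. Mycn was not above background in either genotype. Of these 4 lists, 0 genes passed the test with or without the block.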

How the data were processed

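RNA from 3 Pax7-/- and 3 Pax7+/+ MEF samples was measured on Affymetrix arrays. The authors deposited a table of log2 values, 1 row a probe set. Per the submitters' processing notes it came from Partek and RMA, the robust multi-array average that corrects background, normalizes arrays and summarizes probes. Their settings and the array's build are not stated in the sources used here, and the log base follows from the values' range and RMA's usual output. No further normalization was applied. Arrays have no depth, and their number limits the precision.

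The platform annotation names 1 gene for 23521 of 41345 probe sets and several for 1814, and 16010 are absent from it. The probe set with the highest mean over all arrays stood for a gene, which left 22180 genes. limma (version 3.58.1, R 4.3.3, lmFit and eBayes, two-sided) was fitted to all of them with genotype as the only term, and again with the replicate number as a block. Deviations from the genotype means correlated at 0.920, 0.895 and 0.973 between arrays of equal number. The labels do not state a pairing, and arrays 1 and 2 of opposite genotype also correlated, at 0.898 and 0.910, so the pairing comes from the data and rests on replicate 3. Simulated data on these 22180 genes, for knockout against wild type, held 100 genes changed by 1 on the log2 scale and 100 others changed by 2. With the block 100 of 100 were called at each size, with 13 false calls in that fit. Without the block 0 of 100 were called at each size. The simulated arrays were drawn with replicate shifts shared by both genotypes, and only genes above background were changed. The outcome therefore cannot show that the block suits the real arrays.

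Detection calls are not part of the table, so the background level came from olfactory and vomeronasal receptor genes, and a difference against a genotype not above it is a bound. The members, gene lists and tests were chosen with earlier results of these data known. Named were Rps13, genes past the threshold, up to 8 per direction of one sign in 3 pairs and above background, the 3 with the largest rise, largest fall and smallest step of replicate 3, the P stalk, paralogue and Mdm2 lists, genes whose probe sets differ in sign, and 2 genes of each other list. Other settings covered scaling, probe set choice, a filter on dim genes, batch terms, an intensity trend and left-out arrays. Promoters are RefSeq's.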

Additional observations from a re-analysis of the deposited data

How the results depend on the processing

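With genotype alone, 0 of the 67 genes passed in each other setting without a block, left-out arrays included. With the replicate number as a block, or replicates 1 and 2 as one batch and 3 as the other, 1 passed, Rps13. Settings that join the block with another choice were chosen after seeing the data: quantile normalization, median centring and the mean of all probe sets each gave 1, the intensity trend gave 2 (Rps13 and Rpl3), and the filter on dim genes and the test of all probe sets gave 0. Leaving out a replicate number with the block gave 0 to 1.

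The test of Rps13 concerns its measured difference, and the bound gives its size. With a bound of -1.53 the gene passed in the block, the batch block and the block with the mean of probe sets or the trend, and also at -1.23 with quantile normalization and -1.53 with median centring. Single left-out arrays, fitted without the block, gave -2.29 to -0.60. None of these fits passed the threshold, and neither did the fit of all arrays without the block. Leaving out replicate 1, 2 or 3 from both genotypes with the block gave -2.43, -1.82 and -0.34, the second not past the threshold. The filter on dim genes removed Rps13, so it was not tested there.

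The median difference stayed between -0.02 and -0.01 under scaling, probe set choice and filter, and single left-out arrays gave -0.12 to 0.13. Genes without overlap, 2 as reported, numbered 4 with quantile normalization, 1 with median centring, 4 with the mean of probe sets, 1 with the filter and 2 to 9 with left-out arrays. The share over all genes was not counted under these settings, so the counts are not a result about the 67 genes. A left-out array also leaves fewer values that could overlap. The cause of the changed counts was not tested. No scanner files were used, so the background correction was not varied. Besides Rps13, and Rpl3 when joined with the trend, the block changed no call among the 67 genes.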
